A study of Mus musculus with 15 samples.

Results

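Keratins are the intermediate filament proteins of epithelial cells. A filament is built from pairs of an acidic type I and a basic type II keratin, and in the mouse most type I genes lie in a cluster on chromosome 11 while the type II genes and the type I gene Krt18 lie on chromosome 15. Krt8 and Krt18 form the partner pair of simple epithelia and are the first keratins of the early embryo. Krt17, Krt14 and Krt15 are better known from stratified epithelia and skin appendages, and Krt19 and Krt7 from simple and ductal epithelia.

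The genes described here are 8 keratins of 55228 listed genes, namely Krt17, Krt42, Krt19, Krt14 and Krt15 (type I, chromosome 11), Krt18 (type I, chromosome 15) and Krt8 and Krt7 (type II, chromosome 15). They were chosen by gene symbol, and the group was selected on the values at 240 h, where Krt17 was among the genes with the largest falls. Among genes called at 240 h averaging at least 1 FPKM over these libraries, Krt17 held place 4 from the lowest log2 difference (-2.91), behind Emp1 at -3.52 and ahead of Inhbb at -2.89. All values at 240 h are therefore a description without a test, and so is the comparison between the 2 groups of untreated cells. All 8 genes were found in the deposited tables.

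RNA was sequenced from 81K1, an embryonic stem cell line derived from the mouse line OG2. It is a single clone that carries at the Rosa26 locus a doxycycline-dependent shRNA cassette directed at Smarcb1. Smarcb1 is part of the core of BAF, a complex that remodels chromatin. The 5 groups of 3 libraries were untreated cells at 48 h (48 h ctrl) and 240 h (240 h ctrl) and cells given 1 µg/ml doxycycline daily for 48 h (48 h kd), 72 h (72 h kd) and 240 h (240 h kd). All groups carried the shRNA cassette and grew on gelatine in serum medium with LIF. The 72 h kd cells had no untreated group of their own and were compared with 48 h ctrl and with 48 h kd, and a doxycycline-treated line without the shRNA was not analysed here, so an effect of the drug and of the knockdown cannot be told apart.

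Values are FPKM, reads scaled by the authors to gene length and library total, in which the length is the whole span with introns. The depth recovered from these values was 11074998 to 14515300 reads. Smarcb1 lay at 3.60 ± 0.29 FPKM in 48 h ctrl (SD, n = 3) and at 17.97%, 15.7% and 19.3% of the untreated level at 48 h, 72 h and 240 h of knockdown. The 48 h kd replicate 2 stood apart by its mitochondrial share of reads, 2.35% against 0.469% to 1.81% in the others, and the 48 h results are given with and without it below. The 240 h ctrl replicate 3 had the lowest of these shares and differed more from its replicates than they did from each other (chi-square per degree of freedom of gene reads 8.89 and 5.02 against 2.23). By this measure 48 h kd replicate 2 differed still more from its replicates (11.3 and 9.14 against 1.51). The stem cell markers Pou5f1, Nanog, Sox2 and 5 others were present in all groups, with a summed level of 962 to 1151 FPKM. None of the 8 was called at 48 h or 72 h, and 2 passed the same thresholds at 240 h, Esrrb going from 5.11 to 2.94 FPKM and Zfp42 from 49.5 to 33.05 FPKM (log2 differences -0.78 and -0.58, no test); their part in the keratin values was not tested. The sources used here do not say whether the 3 libraries of a group came from separate cultures, so p-values measure the spread between these libraries, which may be technical.

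The chromosome 11 genes stand close together on the minus strand (build mm10). In the annotation GENCODE M21, Krt15 (ENSMUSG00000054146.8) spans chr11:100131758-100135928, Krt19 (ENSMUSG00000020911.14) chr11:100140810-100148665, Krt14 (ENSMUSG00000045545.8) chr11:100203162-100207548, Krt17 (ENSMUSG00000035557.9) chr11:100256217-100261029 and Krt42 (ENSMUSG00000053654.7) chr11:100262882-100269871. Krt17 and Krt42 are separated by 1.85 kb. On chromosome 15, Krt7 (ENSMUSG00000023039.17) spans chr15:101411043-101430313 on the plus strand, Krt8 (ENSMUSG00000049382.10) chr15:101996698-102004482 on the minus strand and Krt18 (ENSMUSG00000023043.7) chr15:102028180-102032027 on the plus strand. The long non-coding RNA gene Gm36026 shares 271 bases with Krt8 and Gm671 shares 1269 bases with Krt7. Each had at most 1 read in any library, so little of the reads of Krt8 and Krt7 was shared with them.

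The promoters of Krt42, Krt8 and Krt18 are shown because Krt42 was lower and the chromosome 15 pair higher in 240 h kd. Of the 8 genes, 5 had an entry in the RefSeq promoter table (build GRCm38.p6), which holds 250 bases before and 50 bases from the annotated start. Each line reads 5′ to 3′ on the strand of the gene, from chr11:100269902-100270201 (minus strand) for Krt42, chr15:102004293-102004592 (minus strand) for Krt8 and chr15:102027966-102028265 (plus strand) for Krt18. Capitals mark matches to a TATA box (TATAAA), an AP-1 site (TGANTCA), a GC box (GGGCGG) or a KLF box (GGGNGTGG) on either strand, motifs that were chosen after the sequences had been seen.
Krt42: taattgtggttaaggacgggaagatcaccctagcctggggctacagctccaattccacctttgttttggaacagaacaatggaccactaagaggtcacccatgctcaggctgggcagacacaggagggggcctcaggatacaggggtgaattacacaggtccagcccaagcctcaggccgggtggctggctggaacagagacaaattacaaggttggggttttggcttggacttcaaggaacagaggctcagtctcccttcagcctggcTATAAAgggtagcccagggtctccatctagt
Krt8: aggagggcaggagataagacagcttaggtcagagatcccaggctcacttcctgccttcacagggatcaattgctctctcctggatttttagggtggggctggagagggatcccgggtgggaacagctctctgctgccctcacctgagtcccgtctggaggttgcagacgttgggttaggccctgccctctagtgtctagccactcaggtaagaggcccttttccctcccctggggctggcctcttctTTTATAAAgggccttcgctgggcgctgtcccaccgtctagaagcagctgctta
Krt18: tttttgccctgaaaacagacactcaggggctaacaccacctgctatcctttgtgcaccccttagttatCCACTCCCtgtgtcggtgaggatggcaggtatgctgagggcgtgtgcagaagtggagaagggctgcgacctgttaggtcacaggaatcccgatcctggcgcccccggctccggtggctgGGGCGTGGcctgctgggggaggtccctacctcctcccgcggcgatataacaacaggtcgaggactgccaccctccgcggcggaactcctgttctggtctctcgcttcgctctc

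Krt42 held a TATA box 19 bases past the RefSeq start and Krt8 held one across the RefSeq start, which matched on both strands with overlapping letters (TTTATA and TATAAA). The RefSeq start lies 80 bases upstream of the GENCODE start in Krt42 and 140 bases downstream of it in Krt8, so that against the GENCODE starts the TATA box begins 61 bases before in Krt42 and 139 bases after in Krt8. Such letters occur in 13.6% of the 32851 promoters of the same length. Krt18 held no TATA box in this window but had KLF box letters at 182 and 63 bases before the RefSeq start. The KLF box occurs in 17.6% of all promoters. The AP-1 site, present in 7.81%, and the GC box, present in 35.7%, had no match in the 3 windows. These matches describe letters and were not tested against binding.

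In untreated cells Krt17 was the most abundant of the 8 keratins when levels were set per exonic length. Reads in introns may count in these values, to an extent that was not measured and can differ between genes, so the order of genes is approximate. Its level in 48 h ctrl was 22.4 ± 1.7 RPKM over exons (reads scaled to exonic length and library total, SD, n = 3), followed by Krt42 at 8.04 ± 0.72. Krt8 at 4.86 ± 0.61 and Krt18 at 4.79 ± 0.31 came next and did not differ beyond the spread of their libraries. Krt19 was at 2.53 ± 0.32, and Krt14 (0.18 ± 0.16) and Krt7 (0.13 ± 0.04) overlapped at the bottom. No read of Krt15 was found in the 12 libraries outside 240 h kd.

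The order changed along the knockdown. In 48 h kd Krt17 still led at 16.2 ± 2.1 exonic RPKM, while the ranges of Krt42 and Krt8 overlapped. In 72 h kd the ranges of Krt17 (7.10 to 8.06) and Krt18 (5.92 to 7.39) overlapped. In 240 h kd Krt18 led at 18.1 ± 0.8, Krt8 followed at 13.6 ± 1.0, and Krt17 came next at 2.30 ± 0.40, with no overlap between these 3 genes. Krt17 gave 43.3% to 49.6% of the reads of the 8 keratins in the untreated libraries and 4.64% to 6.29% in 240 h kd. In bulk RNA, fewer cells with a keratin and less keratin RNA per cell cannot be told apart.

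**Figure D1:**
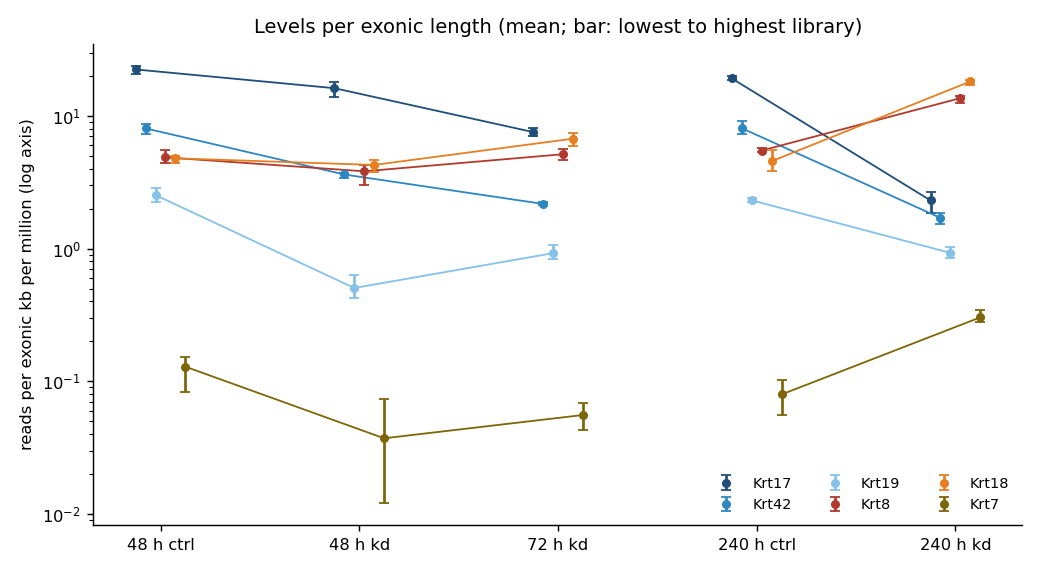
Levels of 6 keratins in the 5 groups, in exonic RPKM (reads scaled to exonic length and library total) on a log axis; points are means of 3 libraries, bars run from the lowest to the highest library, and lines join groups only to guide the eye. Krt17 lies highest in 48 h ctrl (22.4) and in 240 h kd (2.30) below Krt18 (18.1) and Krt8 (13.6).

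Krt17 was lower in every kd library than in every untreated library of the same comparison. The 48 h ctrl libraries held 6.62, 7.33 and 7.67 FPKM of Krt17, the 48 h kd libraries 5.79, 4.48 and 5.35 FPKM and the 72 h kd libraries 2.60, 2.29 and 2.41 FPKM. The 48 h kd libraries lay just under the controls and the 72 h kd libraries far under them. Untreated cells at 240 h held 6.05, 6.02 and 6.43 FPKM, whereas 240 h kd held 0.772, 0.601 and 0.854 FPKM, which is 12.04% of the untreated mean. These values rest on 391 to 437 Krt17 reads per 48 h ctrl library and on 42 to 56 per 240 h kd library.

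Genes were called at an adjusted p below 0.05 (limma, Benjamini-Hochberg over all genes tested) with an absolute log2 fold change above 0.58. Fold changes are on the scale log2(FPKM + 0.1), which understates changes of low genes, and genes averaging under 0.5 FPKM were not tested. Of the 8 keratins, 4 passed this minimum in the comparisons with kd cells, namely Krt17, Krt42, Krt8 and Krt18. At 48 h the log2 value of Krt17 changed by -0.47 ± 0.11 (SE; limma adjusted p = 0.0404), short of the fold threshold and therefore not called. Without 48 h kd replicate 2 it was -0.36 (limma adjusted p = 0.0467). At 72 h against 48 h ctrl Krt17 fell by 1.53 in log2 units (SE 0.07, limma adjusted p = 6.6e-05), and from 48 h kd to 72 h kd it fell by 1.06 (SE 0.10, limma adjusted p = 0.00212). At 240 h the log2 difference was -2.91 (SE 0.12).

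Krt42, a type I keratin next to Krt17 in the cluster, followed the same direction and was already low at 48 h. The 48 h ctrl libraries held 1.84, 2.19 and 2.06 FPKM, the 48 h kd libraries 0.932, 0.939 and 0.865 FPKM and the 72 h kd libraries 0.537, 0.567 and 0.539 FPKM. The 3 groups did not overlap, and the 72 h kd libraries were at 27.0% of the 48 h ctrl mean. Krt42 fell by 1.07 on the log2 scale at 48 h (SE 0.08, limma adjusted p = 0.00179; -1.09 without 48 h kd replicate 2). At 72 h it fell by 1.71 against 48 h ctrl (SE 0.07, limma adjusted p = 5.4e-05) and by 0.64 against 48 h kd (SE 0.07, limma adjusted p = 0.00243), the latter call being lost with a pseudocount of 1 FPKM, where the value was -0.30. The 240 h ctrl libraries held 1.96, 1.84 and 2.31 FPKM of Krt42 and the 240 h kd libraries 0.467, 0.434 and 0.389 FPKM, a log2 difference of -2.01 (SE 0.10). Krt42 thus stood at 44.9%, 27.0% and 21.1% of the untreated mean at the 3 times, and Krt17 at 72.3%, 33.7% and 12.04%.

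**Figure D2:**
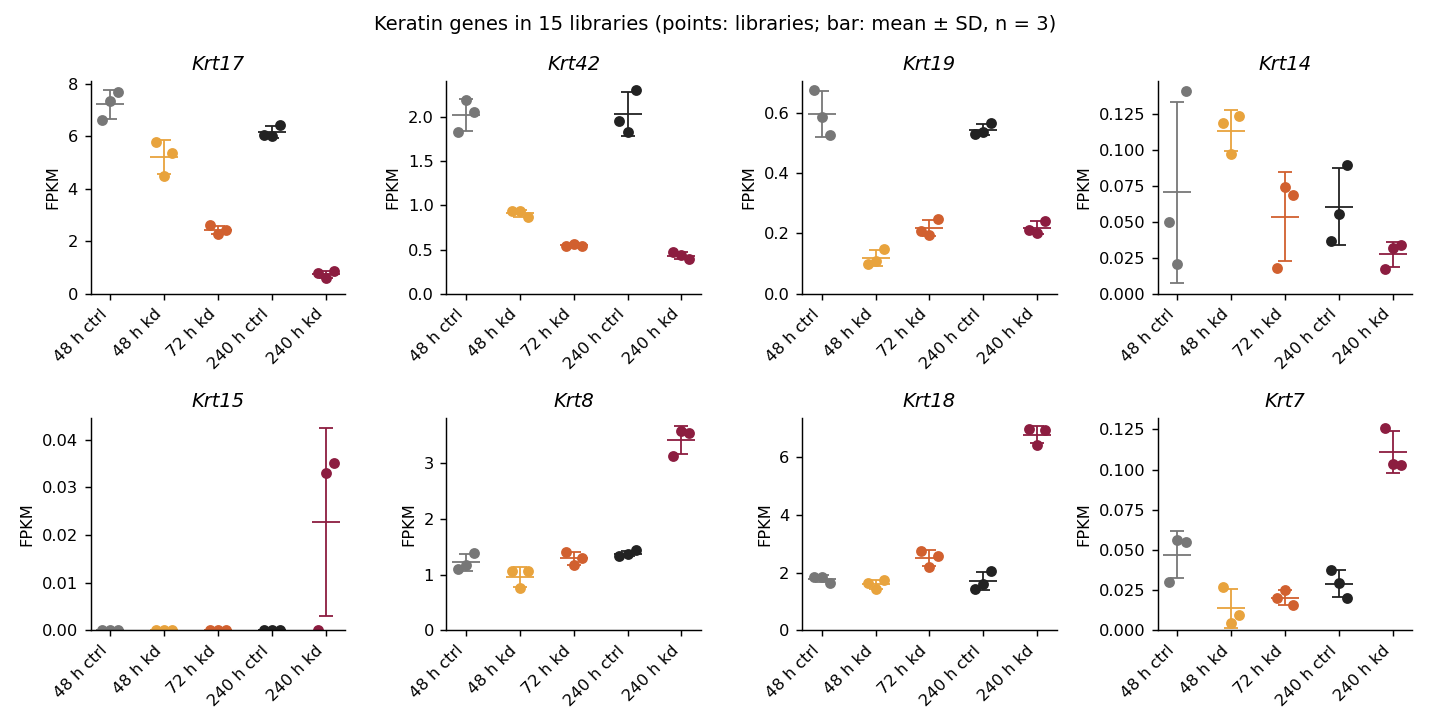
FPKM of the 8 keratins in the 15 libraries; each panel has its own linear axis from 0, points are libraries, and bars give the mean ± SD of 3. Krt17, Krt42 and Krt19 lie below their untreated libraries in all kd groups, while Krt8, Krt18 and Krt7 lie highest in 240 h kd.

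The chromosome 15 pair took another course. Krt8, the type II partner of Krt18, gave 1.11, 1.17 and 1.40 FPKM in the 48 h ctrl libraries, compared with 1.06, 0.756 and 1.07 FPKM under 48 h kd. All 48 h kd libraries lay under the controls, by little. Its log2 fold change at 48 h was -0.33 (SE 0.15, limma adjusted p = 0.208), and -0.18 without 48 h kd replicate 2 (limma adjusted p = 0.312). In 72 h kd Krt8 was at 1.41, 1.16 and 1.31 FPKM, overlapping 48 h ctrl (log2 fold change 0.08, SE 0.11, limma adjusted p = 0.573). Against 48 h kd the value was 0.40 (SE 0.14, limma adjusted p = 0.0781), and 0.26 without 48 h kd replicate 2. The 240 h ctrl libraries held 1.33, 1.37 and 1.44 FPKM of Krt8 and the 240 h kd libraries 3.13, 3.58 and 3.55 FPKM, 2.48 times the untreated mean (log2 difference 1.25, SE 0.06).

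Krt18, the type I partner of Krt8, gave 1.86, 1.85 and 1.65 FPKM in the 48 h ctrl libraries. The 48 h kd libraries held 1.62, 1.42 and 1.74 FPKM, and those of 72 h kd 2.76, 2.21 and 2.56 FPKM. The 48 h groups overlapped and the 72 h kd libraries lay above both. At 48 h its log2 difference was -0.16 ± 0.09 (SE; limma adjusted p = 0.271; -0.08 without 48 h kd replicate 2). At 72 h against 48 h ctrl it was 0.46 (SE 0.09, limma adjusted p = 0.00786), under the fold threshold. From 48 h kd to 72 h kd Krt18 rose by 0.62 (SE 0.11, limma adjusted p = 0.00876). This call was lost without 48 h kd replicate 2, where the value was 0.55 (limma adjusted p = 0.0167), and without 72 h kd replicate 1, where it was 0.56 (limma adjusted p = 0.0315). The 240 h ctrl libraries held 1.44, 1.60 and 2.05 FPKM of Krt18 and the 240 h kd libraries 6.96, 6.43 and 6.95 FPKM, 3.99 times the untreated mean (log2 difference 1.95, SE 0.13). Without 240 h ctrl replicate 3 the 240 h differences were -2.88 for Krt17, -1.92 for Krt42, 1.28 for Krt8 and 2.08 for Krt18. The ratio of Krt18 to Krt8, both per exonic kilobase, ranged from 0.729 to 1.13 in the untreated libraries. It was 1.03, 1.26 and 1.10 in 48 h kd, 1.28 to 1.32 in 72 h kd and 1.21 to 1.498 in 240 h kd, so that the 72 h kd libraries and 1 of 48 h kd lay within the range of 240 h kd.

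**Figure D3:**
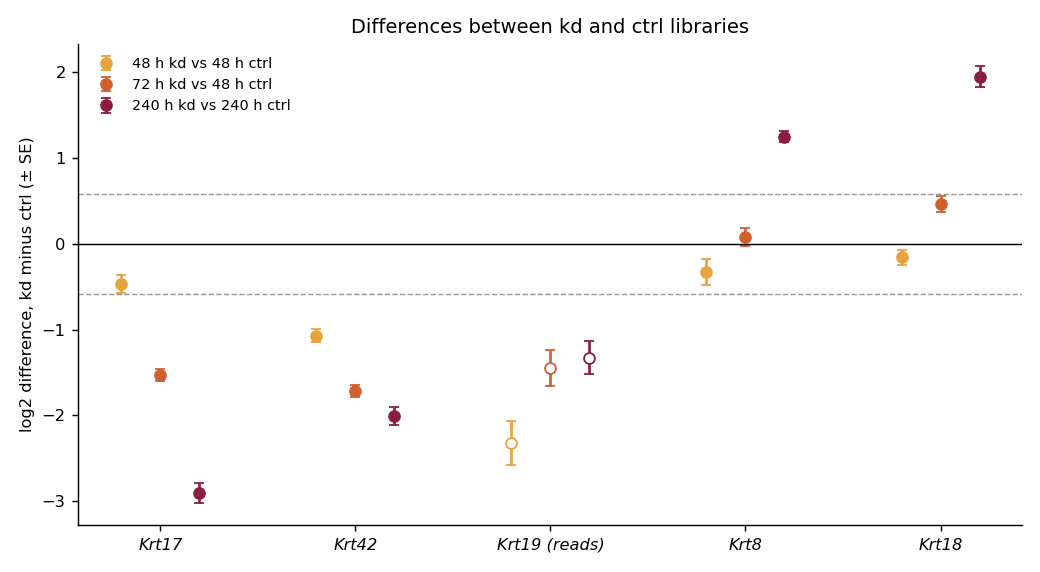
Log2 differences between kd and untreated libraries for 5 keratins at 48 h, 72 h and 240 h, with SE; filled points are from FPKM and open points, for Krt19, from recovered reads, and dashed lines mark the fold threshold of 0.58. Krt17 goes from -0.47 to -2.91 and Krt42 from -1.07 to -2.01, while Krt18 goes from -0.16 to 1.95.

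Read against all genes, the counts were as follows. At 48 h 1 of the 4 tested keratins was called, Krt42, downward, where 3.99% of 11420 genes were called (1.99% higher and 2.01% lower). At 72 h against 48 h ctrl 2 of 4 were called, both lower, where 13.5% of 11440 genes were called (8.23% higher and 5.3% lower). These 2 comparisons share the 48 h ctrl libraries. From 48 h kd to 72 h kd 3 of 4 were called, Krt17 and Krt42 lower and Krt18 higher, where 7.45% of 11500 genes were called (4.17% higher and 3.29% lower). Of these 3, only Krt17 was called with a pseudocount of 1 FPKM, and Krt18 was not called without 48 h kd replicate 2 or without 72 h kd replicate 1. At 240 h, the comparison that chose the genes, the same thresholds held for 4 of 4, 2 higher and 2 lower, where 8.91% of 11401 genes were called (4.79% as higher, 4.12% as lower), and nothing is read from this count. Medians over the 4 tested keratins were -0.40, -0.73 and -0.12 in the 3 tested comparisons, against 0.01, 0.01 and 0.02 over all genes tested.

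The untreated groups lay close together. Between them, 240 h ctrl minus 48 h ctrl, the log2 differences were -0.22 for Krt17, 0.00 for Krt42, 0.16 for Krt8, -0.08 for Krt18 and -0.11 for Krt19, with none of the 5 past the thresholds that 0.475% of 11359 genes passed. Without 240 h ctrl replicate 3 they were -0.25, -0.091, 0.14, -0.22 and -0.13. The Krt17 groups did not overlap, 240 h ctrl being at 85.6% of 48 h ctrl. Set against 240 h ctrl in place of 48 h ctrl, the 72 h kd values were -1.31 for Krt17, -1.71 for Krt42, 0.55 for Krt18 and -0.089 for Krt8, so the sign of Krt8 at 72 h depended on the control.

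Krt19, a small type I keratin without the usual tail domain, was too low for the FPKM test but had enough reads for a fit on recovered reads (limma voom, mean of at least 10 reads). The 48 h ctrl libraries held 73, 51 and 47 Krt19 reads, the 48 h kd libraries 9, 10 and 13 and the 72 h kd libraries 21, 19 and 26. At 240 h untreated libraries held 52, 52 and 57 reads against 22, 23 and 26 under knockdown. The kd libraries lay under the untreated ones at each time, and 48 h kd was the lowest group. In this fit Krt19 fell by 2.32 on the log2 scale at 48 h (SE 0.26, limma adjusted p = 2.7e-05) and by 1.44 at 72 h against 48 h ctrl (SE 0.21, limma adjusted p = 8.2e-07). From 48 h kd to 72 h kd it rose by 0.85 (SE 0.27, limma adjusted p = 0.0230). The fit called 9.32% of 16108, 22.7% of 16146 and 13.2% of 16104 genes in these 3 comparisons. The log2 FPKM fit without a minimum gave -1.67 at 48 h (limma adjusted p = 0.00826) and -1.13 at 72 h (limma adjusted p = 0.00276), where 2.02% and 7.88% of genes were called. There the change from 48 h kd to 72 h kd was 0.54 and not called (limma adjusted p = 0.0721). Without 48 h kd replicate 2, a choice made after seeing the data, the read fit gave -2.25 at 48 h (limma adjusted p = 1.0e-06) and 0.80 from 48 h kd to 72 h kd (limma adjusted p = 0.0477).

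Krt7, a type II keratin of ductal epithelia, was near the limit of detection. The 48 h ctrl libraries held 8, 12 and 12 Krt7 reads, the 48 h kd libraries 6, 1 and 2 and the 72 h kd libraries 5, 6 and 4. At 240 h untreated libraries held 9, 7 and 5 reads against 32, 29 and 27 under knockdown, so the 240 h kd libraries lay above all others. Without an FPKM minimum its log2 fold change was -0.37 at 48 h (limma adjusted p = 0.153; -0.32 without 48 h kd replicate 2) and -0.29 at 72 h (limma adjusted p = 0.0771). Krt14, a keratin of basal epidermal cells, had 1 to 7 reads in every library. Krt15, also of basal cells, had 0 to 2 reads in 240 h kd and none elsewhere, and a count of 0 allows up to 3 reads in a library.

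The rest of the family was nearly silent. Of 45 other keratin genes in the tables, 10 had no read in any library, 43 had at most 10 reads in every library and 2 exceeded that. Krt10, a type I keratin of differentiated epidermis, had 31 to 74 reads per library and was called in no tested comparison, with log2 fold changes of 0.10 at 48 h (0.03 without 48 h kd replicate 2) and -0.21 at 72 h (limma adjusted p = 0.321 at 72 h). Krt13, a type I keratin of mucosal epithelia in the chromosome 11 cluster, is named here after its values were seen. The 48 h ctrl libraries held 14, 13 and 5 Krt13 reads, the 48 h kd libraries 2, 1 and 2 and each 72 h kd library 0. With a floor of 3 reads over the 3 libraries, Krt13 was at least 11.3-fold lower in 72 h kd than in 48 h ctrl, a bound that covers counting error in 72 h kd only and takes the control reads as they stand. At 240 h untreated libraries held 14, 11 and 19 reads against 0, 2 and 0 under knockdown. Krt13 thus lay, like Krt17, Krt42 and Krt19, below the untreated libraries at each time.

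Genes around Krt17 were compared within 150 kb. With a mean of at least 0.5 FPKM, 7 genes lay there, all on the side of Krt42, which was nearest at 1.85 kb and is itself among the keratins described here. Krt13, Krt15, Krt19 and Krt14 lie within 150 kb on the other side and were left out by this minimum. At 48 h 4 of the 7 were called and at 72 h against 48 h ctrl 5 of 7, all lower, beside 2.01% and 5.3% of all genes. The fifth is Gm20394, which lies within the span of Hap1 and can share its reads. The others named here were named after their values were seen. Jup (plakoglobin, a desmosome protein), 108 kb away, fell by 1.00 on the log2 scale at 48 h and by 0.87 at 72 h (limma adjusted p = 0.00236 and 4.7e-05). Hap1, 86.3 kb away, fell by 0.71 and 0.93, and P3h4, 147 kb away, fell by 0.62 and 0.89. Between them and Krt42 lies Eif1, a translation initiation factor, with -0.19 and 0.20 and no call. The lower levels were therefore not continuous along this stretch. Without 48 h kd replicate 2 the same 4 genes were called at 48 h, with Jup at -0.92, Hap1 at -0.83, P3h4 at -0.65 and Krt42 at -1.09.

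**Figure D4:**
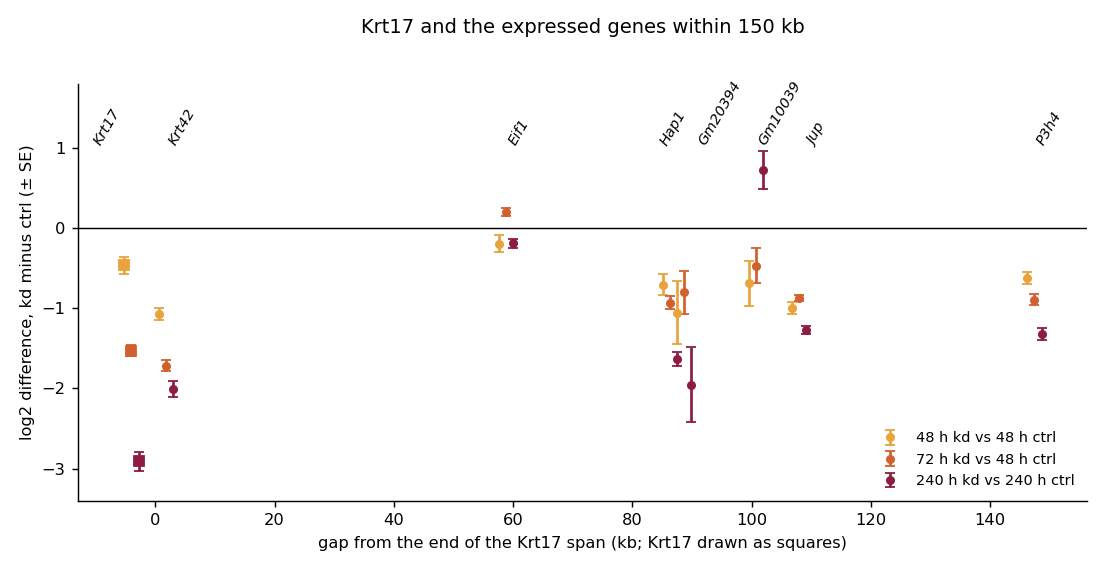
Log2 differences (with SE) at 48 h, 72 h and 240 h for Krt17 (squares) and the 7 expressed genes within 150 kb, by their gap from the Krt17 span in kilobases. Krt17, Krt42, Hap1, Jup and P3h4 lie below 0 at all 3 times, and Eif1 lies between -0.19 and 0.20.

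Around Krt8 and Krt18, 4 genes passed the same level within 150 kb. The nearest was Eif4b, a translation initiation factor 41.7 kb away. It fell by 0.73 at 48 h (limma adjusted p = 0.00115; -0.70 without 48 h kd replicate 2), was at -0.55 at 72 h without passing the fold threshold and had a log2 difference of -0.80 at 240 h. At 240 h the 4 neighbours ranged from -0.80 to 0.34, below the values of Krt8 (1.25) and Krt18 (1.95).

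The desmosome and linker genes join keratin filaments to cell contacts. Of 23 listed, 13 were tested at 48 h, where 5 were called lower and none higher beside the 2.01% and 1.99% of all genes. At 72 h against 48 h ctrl 14 were tested, where 5 were called lower and 2 higher beside 5.3% and 8.23%. With a pseudocount of 1 FPKM or a minimum of 2 FPKM the number called dropped to 2 at 48 h and to 2 at 72 h. From 48 h kd to 72 h kd 2 of 13 were called, both lower (all genes 3.29%), and 1 was called when any of the 6 libraries was left out. Without 48 h kd replicate 2 the genes called at 48 h were 6 of 14, all lower. The gene added there was Dsp, at 0.73 FPKM in 48 h ctrl, which passed the FPKM minimum only through that group. With all libraries the medians of the tested genes were -0.17, -0.35 and 0.12 in the 3 comparisons. Perp, a desmosome membrane protein, fell at both times, with log2 changes of -0.91 at 48 h and -1.499 at 72 h, from 6.08 ± 0.34 FPKM in 48 h ctrl to 2.08 ± 0.05 FPKM in 72 h kd (SD, n = 3; limma adjusted p = 3.2e-05). Dsg2, a desmosomal cadherin, fell by 0.94 and 0.82, and Dsp (desmoplakin, which binds keratin filaments) fell by 0.68 at 72 h. Dsp, among the 5 lower there, was at 0.42 FPKM in 72 h kd and 0.73 FPKM in 48 h ctrl. It passed the FPKM minimum only through 48 h ctrl. At 48 h Dsp lay under the FPKM minimum with all libraries. Without 48 h kd replicate 2 it was tested and called, at -1.28 (limma adjusted p = 0.00813), and its value from 48 h kd to 72 h kd was then 0.59 with no FPKM minimum (limma adjusted p = 0.0303). Dst, a plakin of hemidesmosomes, rose by 0.89 at 72 h (limma adjusted p = 0.000266). At 240 h the log2 differences were -0.46 for Perp, -1.27 for Jup, -1.65 for Dsg2, -0.97 for Dsp and 0.27 for Dst.

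Other intermediate filament genes gave 1 lower and no higher call of 11 tested at 48 h, beside 2.01% and 1.99% of all genes. That gene, Des (desmin, the filament of muscle), is named after its values were seen, and its call was lost without 48 h ctrl replicate 2, with a pseudocount of 1 FPKM and with a minimum of 2 FPKM, but not without 48 h kd replicate 2. The list gave 4 lower and none higher at 72 h against 48 h ctrl (all genes 5.3% and 8.23%) and 3 lower and 1 higher from 48 h kd to 72 h kd (all genes 3.29% and 4.17%), the last 4 dropping to 2 with that pseudocount or minimum. Medians were -0.20, -0.48 and -0.35. The 4 at 72 h were neuronal filament genes. Nefl, Nefm and Nefh, the neurofilament subunits, fell, with log2 changes of -1.84, -1.501 and -1.33, and Prph (peripherin) fell by 0.68. Nefm was at 0.32 FPKM in 72 h kd, 1.10 FPKM in 48 h ctrl and 0.87 FPKM in 48 h kd. In both comparisons of 72 h kd it passed the FPKM minimum only through the other group. At 48 h Nefl, Nefm, Nefh and Prph had values of -0.35, -0.30, -0.45 and -0.18, none called, and at 240 h of -1.27, -0.87, -0.20 and -0.44. Ina (alpha-internexin), another neuronal filament gene named after its values were seen, went the other way without passing the fold threshold, with log2 fold changes of 0.38 at 48 h and 0.28 at 72 h (limma adjusted p = 0.00697 and 0.000960). At 240 h Ina was at 23.5 FPKM against 13.5 FPKM in 240 h ctrl, a log2 difference of 0.79. Nes (nestin, a filament of neural progenitors), also named after its values were seen, was at -0.43 at 48 h, -0.48 at 72 h and 0.64 at 240 h, with no call at 48 h or 72 h. Vim (vimentin, the filament of mesenchymal cells), named after its values were seen, was at 13.9 ± 0.6 FPKM in 240 h ctrl and 37.9 ± 1.3 FPKM in 240 h kd (SD, n = 3), a log2 difference of 1.44 beside those of Krt8 and Krt18.

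Of 22 listed epithelial regulators, 13 were tested, with 3 lower and none higher at 48 h, 3 lower and 1 higher at 72 h against 48 h ctrl and 2 higher from 48 h kd to 72 h kd, and medians were -0.29, -0.02 and 0.13. Over all genes the shares were 2.01% lower and 1.99% higher, 5.3% lower and 8.23% higher, and 4.17% higher. The same 3 were called at 48 h without 48 h kd replicate 2. A pseudocount of 1 FPKM left 1 call at 48 h and 2 at 72 h, and limma voom gave 6 and 8. The 2 calls from 48 h kd to 72 h kd dropped to 1 without replicate 1 or 3 of 48 h kd, without replicate 1 or 3 of 72 h kd, under median centring or quantile normalization and with a pseudocount of 1 FPKM or a minimum of 2 FPKM. They became 3 without 48 h kd replicate 2 and 5 with limma voom. Klf4, a factor of both stem cells and epidermis, fell by 0.87 and 0.76, and its log2 difference at 240 h was -1.20. Esrp1, an epithelial splicing factor, fell by 0.70 and 0.86, and its relative Esrp2 fell by 0.58 at 72 h. Tfap2c, a factor of trophoblast and epidermis, fell by 0.61 at 48 h and rose by 0.92 at 72 h (limma adjusted p = 0.00268 and 5.8e-05), and was at 0.64 at 240 h. The adhesion genes Epcam and Cdh1 (E-cadherin), named after their values were seen, had log2 differences of -1.20 and -0.94 at 240 h, from 10.7 ± 0.7 to 4.58 ± 0.13 FPKM and from 8.51 ± 0.16 to 4.38 ± 0.10 FPKM (SD, n = 3).

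**Figure D5:**
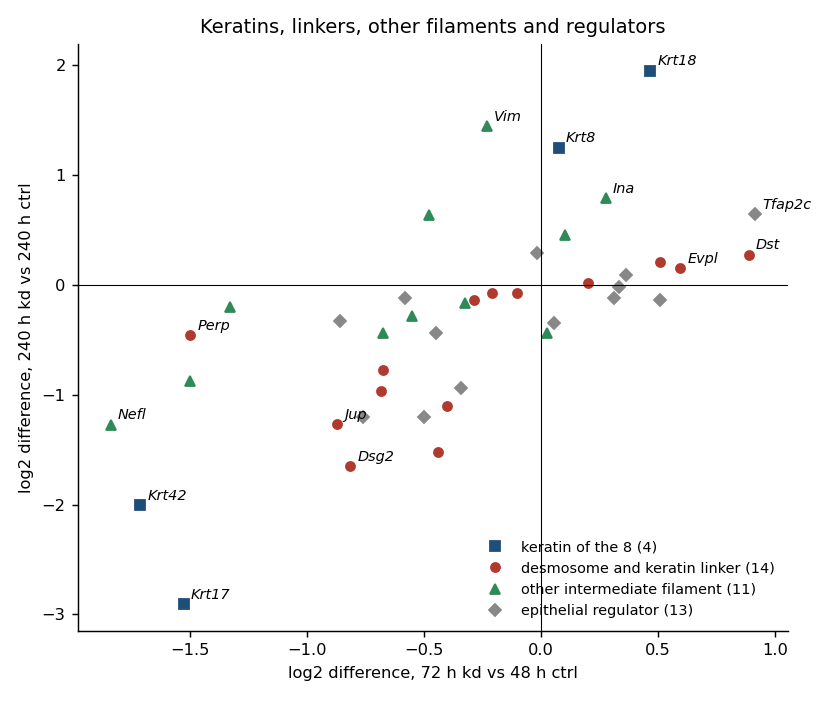
Log2 differences at 72 h (against 48 h ctrl, x axis) and 240 h (against 240 h ctrl, y axis) for the 4 tested keratins, 14 desmosome and linker genes, 11 other intermediate filament genes and 13 epithelial regulators. Krt17 and Krt42 lie low on both axes with Nefl and Jup, and Krt8, Krt18 and Vim lie highest at 240 h.

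Markers of other cell types were read beside these values. The 7 trophoblast markers summed to 8.19 to 8.82 FPKM in 240 h ctrl and 13.3 to 13.6 FPKM in 240 h kd, of which Tfap2c alone was 7.33 and 11.5 FPKM, while Elf5 and Gata3 averaged at most 0.02 FPKM. From 240 h ctrl to 240 h kd the mean of Hand1 went from 0.098 to 0.86 FPKM and that of Cdx2 from 0.070 to 0.33 FPKM, higher as Krt8 and Krt18 were, while Eomes went from 0.65 to 0.32 FPKM. In 72 h kd, where the trophoblast sum was 17.1 to 17.8 FPKM, Hand1 was at 0.075 and Cdx2 at 0.032 FPKM. The 7 fibroblast markers summed to 1.84 to 2.22 FPKM in 240 h ctrl and 2.92 to 3.53 FPKM in 240 h kd, with Col1a1 going from 0.26 to 0.92 FPKM, Twist1 from 1.06 to 1.79 FPKM and Thy1 from 0.65 to 0.45 FPKM. The 7 primitive endoderm markers summed to at most 0.85 FPKM in any library. The 7 stratified epithelium markers summed to 54.0 to 59.7 FPKM in 48 h ctrl and 23.0 to 30.3 FPKM in 48 h kd. They summed to 33.7 to 36.6 FPKM in 72 h kd, and the ranges of 240 h ctrl (42.9 to 51.6 FPKM) and 240 h kd (38.7 to 45.4 FPKM) overlapped. Nearly all of that sum was Sfn, while Trp63 and Krt5 were at or near 0 in all groups. The part of these markers in the keratin values was not tested.

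The protein-coding genes whose levels over the 15 libraries were most like those of Krt17 were Scd2, Trh, Cth, Apobec3 and Vdac1, with Pearson correlations of 0.99, 0.99, 0.98, 0.97 and 0.97 among 7080 genes averaging 1 FPKM or more. The 15 libraries fall into 5 groups and share the knockdown, so these correlations describe a shape and carry no test. They include the 240 h libraries on which Krt17 was chosen, and a correlation does not measure the size of a change. Trh lay at 189.5 ± 9.8 FPKM in 48 h ctrl and 13.03 ± 0.62 FPKM in 240 h kd (SD, n = 3). Between the same groups Scd2 went only from 73.2 to 47.6 FPKM and Vdac1 from 29.7 to 20.3 FPKM. Krt42 held place 135 with 0.87, and Krt18 and Krt8 held places 7055 and 6874 with -0.94 and -0.83.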

How the data were processed

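The authors aligned single-end reads to mm10 (GRCm38.p6) with STAR 2.7.0c, counted reads per gene in R 4.0.3 and tested them with DESeq2 1.30.0. The deposited tables give FPKM for every gene in each library. The annotation behind them is not given in the sources used here, and 96.5% of the 55228 listed genes matched GENCODE M21 by chromosome, start, end and symbol. Multiplying FPKM by the whole gene span and 1 total per library gave whole reads (tolerance 0.001) for all values, so the length used was the whole span. Whether reads in introns were counted and whether strand was used was not tested. Overlapping genes can share reads. Similar keratin sequences can also share reads.

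Log2(FPKM + 0.1) was tested with limma 3.58.1 (R 4.3.3, trended variances, genes averaging 0.5 FPKM or more, Benjamini-Hochberg over all genes), 3 libraries against 3, with the thresholds of the study (adjusted p 0.05, absolute log2 fold change 0.58). The code was tested on simulated data. Groups came from the sample labels. Recovered reads were fitted with limma voom. No pair of replicates agreed within sampling noise. Named genes were the 8 keratins, Smarcb1, other keratins called or with a mean of at least 50 reads in a group, up to 5 genes per list with the largest change among those called at 72 h, the nearest neighbours and the 5 genes most like Krt17. The members and lists were chosen with earlier results of these data known. The comparisons of 240 h kd with 240 h ctrl and of 240 h ctrl with 48 h ctrl carry no test.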

Additional observations from a re-analysis of the deposited data

Results flagged for a closer look

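Krt8 was flagged because all 48 h kd libraries lay below 48 h ctrl and all 240 h kd libraries lay above 240 h ctrl. The 240 h difference exceeded the 48 h difference by 1.58 on the log2(FPKM + 0.1) scale. Krt7 was flagged for the same crossing, with its kd libraries below 48 h ctrl at 48 h and 72 h and above 240 h ctrl at 240 h. The gap was 1.08 against 48 h and 0.99 against 72 h on that scale, from at most 32 reads in a library. Neither difference between times was tested, since the values at 240 h belong to the comparison that chose the genes. Members' values were not searched for outlying samples, since groups held 3 libraries.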

How the results depend on the processing

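Of 201 recomputed fold changes of Krt17, Krt42, Krt8 and Krt18 in the 3 tested comparisons, 196 kept their direction and were called or not called as before. Krt8 at 72 h turned from 0.08 to -0.089 with 240 h ctrl as the control. With a pseudocount of 1 FPKM the calls of Krt42 (-0.30) and Krt18 (0.44) from 48 h kd to 72 h kd were lost, leaving 1 of 3 called. When each library was left out in turn, Krt18 in that comparison ranged from 0.55 to 0.71. At 48 h the number of keratins called was 2 in place of 1 without an FPKM minimum and with limma voom on recovered reads, in both cases because Krt19 entered, and 0 with a minimum of 2 FPKM, which removed Krt42. At 72 h against 48 h ctrl that minimum left 1 in place of 2. The adjusted p of Krt17 at 48 h ranged from 0.00319 to 0.131 over the alternatives and its fold change never passed 0.58.

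Replicate numbers did not pair the samples, since deviations of libraries with the same number correlated between -0.105 and 0.142. With the replicate block, 285 genes were called at 48 h in place of 456, Krt17 at 48 h had an adjusted p of 0.118 (limma), and the number of keratins called stayed at 1, 2 and 3. The number of genes called over the whole table also moved with the pseudocount of 1 FPKM (208 at 48 h, 745 at 72 h against 48 h ctrl and 365 from 48 h kd to 72 h kd), the minimum of 2 FPKM (208, 768 and 407) and limma voom (1501, 3661 and 2122), and at 72 h against 48 h ctrl with no minimum (2500). Under TPM 697 were higher and 330 lower from 48 h kd to 72 h kd, in place of 479 and 378. At 240 h, without a test, Krt42 moved from -2.01 to -1.08 with the pseudocount of 1 FPKM, and between the untreated groups Krt17 moved from -0.22 to -0.11 and Krt8 from 0.16 to 0.29 under TPM. Depth limits Krt7, Krt14, Krt15 and Krt13, whose counts stay at 32 reads or fewer in each library.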
